A study of Mus musculus with 6 samples.

Results

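The 10 tubulin genes described here are the 6 beta-tubulin genes Tubb2a, Tubb2b, Tubb3, Tubb4b, Tubb5 and Tubb6, and the 4 alpha-tubulin genes Tuba1a, Tuba1b, Tuba1c and Tuba4a. They were taken by symbol from a table of 51912 genes, and all 10 passed the filter on low values. The set was selected on the low value of Tubb2b in the knockout libraries of this same table, so the levels and changes of the members are given as a description without a test. RNA was sequenced from B16F10, a mouse melanoma cell line. The wild-type group (WT) holds 3 libraries, numbered 1, 2 and 3. The other group (A10KO) holds 3 libraries of the same line with the genotype ANXA10-/-, numbered 1, 13 and 14, in which Anxa10 was knocked out, the gene of a protein of the annexin family, whose members bind membranes in the presence of calcium. The labels name no treatment and no time point. They do not state whether the numbers stand for clones, cultures or repeated preparations, so the spread between libraries may be technical and p-values measure only that spread. Anxa10 itself was listed at 0 in all 6 libraries, including the 3 of WT, so its level gives no check of the labels.

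Values are in TPM, a transcript level divided by transcript length and by the library's total, which allows levels of different genes to be compared. The unit does not retain how deeply a library was sequenced, so depth is unknown and no counting interval can be given. Markers of the labelled cell type were present. All 10 listed melanocyte genes passed the filter, and their summed level was 9038 to 10148 TPM in WT and 9548 to 11455 TPM in A10KO. One of them, Oca2, was at 8.41, 11.39 and 8.05 TPM in WT. In A10KO replicates 1, 13 and 14 it was at 0.4, 4.85 and 11.33 TPM. Of 12 neuronal marker genes, 11 were under 1 TPM in every library, with Nefl, Nefm, Elavl4, Stmn2 and Dcx at 0. The whole neuronal list summed to 1.01 to 2.31 TPM in WT and 1.17 to 2.69 TPM in A10KO. The share of TPM from mitochondrially encoded transcripts was 6.32% to 6.56% in WT and 7.93%, 14.7% and 7.37% in A10KO replicates 1, 13 and 14. Much of it came from mt-Atp8, at 27336 TPM on average in WT and 32967, 74021 and 33595 TPM in those A10KO libraries. In contrast, mt-Atp6 was listed at 0 in every library. Of 10 tested mitochondrially encoded genes, 8 had all A10KO libraries above WT, beside 5.61% of all tested genes. Summed levels of some other marker lists were lower in A10KO. The fibroblast list, with 3 of 8 genes tested and Lum at 0, summed to 7.93 to 10 TPM in WT and 4.58 to 7.70 TPM in A10KO. The leukocyte list, with 1 of 8 tested and Tyrobp and Cd3e at 0, summed to 3.71 to 6.35 TPM and 1.54 to 2.44 TPM. The glia and Schwann cell list, with 4 of 8 tested and Sox2 at 0, summed to 430 to 476 TPM and 161 to 433 TPM, with overlap. Its Mbp was at 39.66 TPM in A10KO replicate 1, where S100b and Fabp7 had their highest values, 98.31 and 20.29 TPM. Of the 4 tested genes 1 was below 0 and 3 were above, with a median log2 change of 0.31. Immediate early genes, which respond to handling of cells, summed to 122 to 149 TPM in WT and 79.3 to 84.6 TPM in A10KO. The part of these lists in the tubulin values was not tested.

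Microtubules are hollow polymers built from dimers of one alpha- and one beta-tubulin. They form the mitotic spindle, and in pigment cells they are the tracks on which melanosomes are carried by kinesin and dynein motors. Vertebrates encode several isotypes of each subunit, which are alike over most of their length and differ mainly in the acidic tail at the carboxyl end, where many modifying enzymes and motors act. Cells also adjust tubulin mRNA to the amount of free dimer, through the factor TTC5, which binds the start of the nascent tubulin chain on the ribosome. Tubb2b and Tubb3 are best known from developing neurons, whereas Tubb5, Tubb4b and Tuba1b are made in most dividing cells.

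In the coding sequence for the tail most of the isotypes can be told apart, but the Tubb2 genes encode the same amino acids there. The last 60 coding bases, stop codon included, are shown from the GRCm38 genome for 5 of the 6 beta genes, all but Tubb6. Capitals mark bases that did not match Tubb2b when the whole coding sequences were aligned in pairs.
Tubb2b, chr13:34127471-34127530, minus strand: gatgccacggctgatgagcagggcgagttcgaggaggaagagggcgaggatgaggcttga
Tubb2a, chr13:34074468-34074527, minus strand: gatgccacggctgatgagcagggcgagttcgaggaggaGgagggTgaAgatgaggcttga
Tubb5, chr17:35834982-35835041, minus strand: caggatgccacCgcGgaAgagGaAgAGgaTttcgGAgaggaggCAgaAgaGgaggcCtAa
Tubb4b, chr2:25222308-25222367, minus strand: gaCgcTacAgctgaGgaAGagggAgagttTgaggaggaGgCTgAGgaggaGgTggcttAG
Tubb3, chr8:123421623-123421682, plus strand: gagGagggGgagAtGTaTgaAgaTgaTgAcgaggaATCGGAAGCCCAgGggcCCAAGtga
Tubb2a carried 3 unmatched bases in this stretch, against 16 in Tubb5, 17 in Tubb4b and 28 in Tubb3. Those of Tubb2a leave each codon with the same meaning, so Tubb2a and Tubb2b encode the same amino acids in this stretch. Over the whole coding sequence Tubb2a and Tubb2b were 96.5% identical, with 47 of 1338 bases different, whereas Tubb2b was 84.5% identical to Tubb3, 84.1% to Tubb5, 83.9% to Tubb6 and 83.5% to Tubb4b.

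The tails of 2 alpha genes, Tuba1c and Tuba4a, are shown with the last codon before the stop in capitals, because alpha-tubulin is known for the removal and return of a tyrosine at this place.
Tuba1c, chr15:99037950-99038009, plus strand: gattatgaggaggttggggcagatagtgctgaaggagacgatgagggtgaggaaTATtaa
Tuba4a, chr1:75215622-75215681, minus strand: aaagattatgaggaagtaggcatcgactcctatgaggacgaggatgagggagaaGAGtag
Tuba1c ends in TAT, a tyrosine codon, and Tuba4a ends in GAG, a glutamate codon. The 3 Tuba1 genes were 97.6% to 98.4% identical to each other over the coding sequence, and Tuba4a was 85.3% to 85.6% identical to them.

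The start of the chain is the part read in tubulin mRNA autoregulation, and the first 36 coding bases are shown with the first 4 codons in capitals for both Tubb2 genes and the most abundant beta isotype.
Tubb2b, chr13:34130198-34130233, minus strand: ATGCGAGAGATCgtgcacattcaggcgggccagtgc
Tubb2a, chr13:34077894-34077929, minus strand: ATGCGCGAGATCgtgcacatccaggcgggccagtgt
Tubb5, chr17:35838018-35838053, minus strand: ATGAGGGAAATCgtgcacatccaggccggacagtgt
The 6 beta genes held 5 different versions of these 12 bases and the 4 alpha genes held 2. These are differences of bases and not of the chain. The versions of Tubb2a, Tubb2b, Tubb3, Tubb4b and Tubb5 encode the same 4 amino acids, and the 2 alpha versions encode the same 4 as each other.

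Tubb2b (ENSMUSG00000045136, chromosome 13, 34126748 to 34130466, minus strand), a neuronal beta isotype needed for neuron migration, was the member furthest from WT. Its level was 26.27, 31.89 and 30.54 TPM in WT replicates 1, 2 and 3, and 6.23, 6.25 and 6.18 TPM in A10KO replicates 1, 13 and 14. All A10KO libraries lay far below all WT libraries and almost on top of each other. The means were 29.6 ± 2.93 TPM (SD, n = 3) in WT and 6.22 ± 0.0361 TPM (SD, n = 3) in A10KO, so A10KO stood at 21.04% of WT. On the log2(TPM + 1) scale, which understates differences of low genes, the difference was -2.08 (SE 0.15). In these bulk libraries fewer cells with the transcript and less transcript per cell cannot be told apart.

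The spread of Tubb2b within A10KO was smaller than that of most genes in this group. Its coefficient of variation there was 0.58%, and 0.075% of the 9376 genes averaging 5 TPM or more had a lower one. The median gene had 19.7% in A10KO and 9.25% in WT, and Tubb2b had 9.92% in WT. The set was selected on these same A10KO values of Tubb2b, from few libraries, so its rank is a description and nothing is read from it. The A10KO libraries differed at the other isotypes, with coefficients of variation from 11.7% for Tubb5 to 84.8% for Tuba4a.

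Tubb2a (ENSMUSG00000058672, chromosome 13, 34074274 to 34078007, minus strand), the closest relative of Tubb2b, lies 48.7 kb from it on the same strand. It stood at 20.85, 24.39 and 25.39 TPM in WT and at 10.96, 12.99 and 18.05 TPM in A10KO replicates 1, 13 and 14. The groups did not overlap, and replicate 14 was the highest of the A10KO libraries. The mean was 23.5 ± 2.39 TPM (SD, n = 3) in WT and 14 ± 3.65 TPM (SD, n = 3) in A10KO, a log2 difference of -0.73 (SE 0.20). Reads from the Tubb2 genes can be shared: of all 100-base windows of the Tubb2b transcript, 26.1% also occur in Tubb2a, so part of the division between them rests on the authors' counting.

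Taken as a pair, Tubb2a and Tubb2b made up 2.74% ± 0.262 (SD, n = 3) of beta-tubulin TPM in WT and 1.30% ± 0.186 (SD, n = 3) in A10KO. Because the Tubb2 transcripts differ in length, this sum also depends to some degree on how shared reads were divided. Within the pair, Tubb2b supplied 55.8%, 56.7% and 54.6% in WT and 36.2%, 32.5% and 25.5% in A10KO. Tubb2b was thus the larger member of the pair in each WT library and the smaller in each A10KO library.

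Tubb5 (ENSMUSG00000001525, chromosome 17, 35833921 to 35838306, minus strand), the general beta isotype of dividing cells, was the most abundant beta member. It stood at 874.76, 889.77 and 926.07 TPM in WT and at 789.31, 654.82 and 821.13 TPM in A10KO. The A10KO libraries were all below WT, by a log2 difference of -0.25 (SE 0.13), or -0.16 without A10KO replicate 13. Under a median-of-ratios scaling of the libraries the groups overlapped.

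Tubb4b (ENSMUSG00000036752, chromosome 2, 25222160 to 25224702, minus strand), an isotype also used in cilia, was measured at 576.71, 493.94 and 613.19 TPM in WT and 387.25, 427.91 and 537.65 TPM in A10KO. The groups overlapped, because A10KO replicate 14 was above WT replicate 2. The log2 difference was -0.32 (SE 0.16).

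Tubb3 (ENSMUSG00000062380, chromosome 8, 123411424 to 123422015, plus strand), the class III isotype used as a neuronal marker, was well expressed in this line while the neuronal list was near 0. It was measured at 234.29, 259.92 and 250.98 TPM in WT. In A10KO replicates 1, 13 and 14 it was measured at 256.81, 187.09 and 150.04 TPM. Replicate 1 lay within the WT range and the other A10KO libraries below it, for a log2 difference of -0.36 (SE 0.19), which was -0.56 without replicate 1 and -0.18 without replicate 14.

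Tubb6 (ENSMUSG00000001473, chromosome 18, 67390717 to 67402749, plus strand), a broadly made isotype, was measured at 163.42, 166.7 and 177.36 TPM in WT and 104.6, 134.44 and 118.22 TPM in A10KO. The groups did not overlap, and the log2 difference was -0.51 (SE 0.13). The highest A10KO library, replicate 13, was below the lowest WT library, and the A10KO libraries were spread more widely (SD 14.9 TPM) than those of WT (SD 7.29 TPM).

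**Figure D1:**
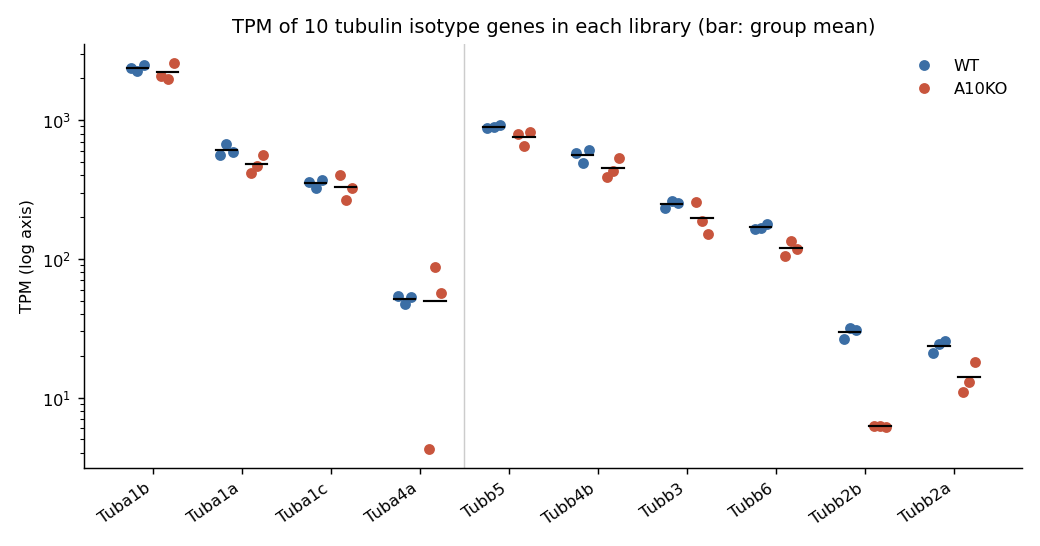
Level of each of the 10 tubulin genes in TPM (log axis), one point per library, WT and A10KO side by side with a bar at the group mean. Tubb2b shows the widest gap between groups, 26.27 to 31.89 TPM against 6.18 to 6.25 TPM, and Tuba4a shows one A10KO library at 4.27 TPM apart from the rest.

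Tuba1b (ENSMUSG00000023004, chromosome 15, 98931425 to 98934565, minus strand), the main alpha isotype of dividing cells, had the highest level of all members. It stood at 2394.68, 2243.59 and 2484.26 TPM in WT and 2086.33, 1990.52 and 2569.48 TPM in A10KO. The highest value of all was in A10KO replicate 14, so the groups overlapped, with a log2 difference of -0.11 (SE 0.15). It was -0.035 without A10KO replicate 13 and -0.22 without replicate 14.

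Tuba1a (ENSMUSG00000072235, chromosome 15, 98949837 to 98953703, minus strand), the alpha isotype most tied to neurons, was measured at 558.16, 667.62 and 593.85 TPM in WT. A10KO replicates 1, 13 and 14 were measured at 418.26, 464.93 and 562.73 TPM. Replicate 14 exceeded WT replicate 1, so the groups overlapped, and the log2 difference was -0.34 (SE 0.15), or -0.21 with array quality weights.

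Tuba1c (ENSMUSG00000043091, chromosome 15, 99029891 to 99038110, plus strand), a further member of that cluster, was measured at 356.84, 326.79 and 372.15 TPM in WT and 399.96, 263.46 and 324.11 TPM in A10KO. The log2 difference of -0.11 (SE 0.17) changed sign, to 0.03, when A10KO replicate 13 was left out. Of all 100-base windows, 65.8% of Tuba1a, 73.0% of Tuba1b and 53.4% of Tuba1c also occur in transcripts of another gene, so the division among the Tuba1 genes is uncertain. The same holds for 30.6% of Tubb4b, through pseudogene copies, and for none of the windows of Tubb3, Tubb5 and Tubb6.

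Tuba4a (ENSMUSG00000026202, chromosome 1, 75214228 to 75219865, minus strand), which ends without a tyrosine codon, was the member with the widest spread. It stood at 53.62, 46.94 and 52.73 TPM in WT and at 4.27, 87.39 and 57.11 TPM in A10KO replicates 1, 13 and 14. One A10KO library was thus far below WT and the other 2 were above it. The log2 difference of -0.79 (SE 0.93) became 0.46 without replicate 1, so its sign rests on that library. Of its 100-base windows, 46.7% also occur in Stk16, which overlaps it on the opposite strand, and the counting strand setting is not given in the sources used here. Stk16 itself was measured at 96.19, 97.72 and 103.31 TPM in WT and 73.45, 100.49 and 104.9 TPM in A10KO, and the library with Tuba4a at 4.27 TPM was also the lowest for Stk16.

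Across the 10 members the mean was lower in A10KO for each one, and the median log2 difference was -0.35, beside -0.04 over all 12068 genes tested, of which 56.5% were below 0. With an adjusted p threshold of 0.05 in limma, 1 member, Tubb2b, was called lower, beside 0.0249% of all tested genes, and 0 members were called higher, beside 0.0166%. All A10KO libraries lay below all WT libraries for 4 members, namely Tubb2a, Tubb2b, Tubb5 and Tubb6, where 11.5% of all tested genes did so. None had all A10KO libraries above, where 5.61% of all tested genes did so. All 4 non-overlapping members were beta isotypes. Since this contrast chose the set, nothing is read from these counts. The number ranged from 4 to 7 when single libraries were left out, with 7 reached without A10KO replicate 14, while 14.2% to 21.05% of all genes did so in the same settings. It was 3 under the median-of-ratios scaling, which lost Tubb5, and 4 with mitochondrial transcripts removed, where 8.65% and 8.40% of all genes did so.

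**Figure D2:**
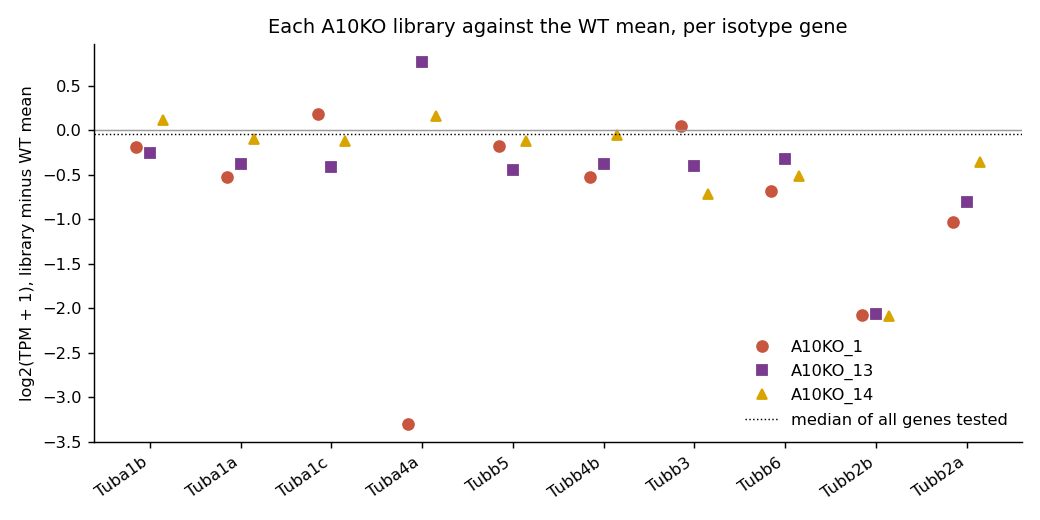
Difference of each A10KO library from the WT mean on the log2(TPM + 1) scale, one column per tubulin gene and one symbol per library. The Tubb2b symbols lie together near -2.08, while those of Tuba4a run from -3.30 to 0.77.

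The sum of the beta genes was lower in A10KO. It came to 1903.47, 1875.91 and 2031.56 TPM in WT and 1563.26, 1435.6 and 1653.87 TPM in A10KO, or means of 1937 ± 83.1 and 1551 ± 110 TPM (SD, n = 3), without overlap. The beta sum stood at 80.1% of WT. The alpha sum was 3384 ± 110 TPM in WT against 3077 ± 382 TPM in A10KO (SD, n = 3), and here the groups overlapped. The ratio of alpha to beta TPM was 1.77, 1.75 and 1.72 in WT and 1.86, 1.96 and 2.12 in A10KO, higher in each A10KO library than in any WT library. Leaving out single libraries gave a difference in the ratio from 0.16 to 0.29.

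Most of the lower beta sum came from the abundant isotypes. The A10KO mean minus the WT mean was -386 TPM, of which Tubb5 accounted for 36.7%, Tubb4b for 28.6%, Tubb3 for 13.1%, Tubb6 for 12.97%, Tubb2b for 6.05% and Tubb2a for 2.47%. For the alpha sum the difference was -308 TPM, of which Tuba1b accounted for 51.6%, Tuba1a for 40.5%, Tuba1c for 7.39% and Tuba4a for 0.49%. The mitochondrial share was higher in each A10KO library, though much of it came from mt-Atp8. In the units used a larger mitochondrial part lowers the TPM of other genes. With mitochondrial transcripts removed and TPM rescaled, the beta difference was -343 TPM and the alpha difference -184 TPM. Under median-of-ratios scaling they were -321 and -192 TPM. Without A10KO replicate 13, the library with the highest mitochondrial share, the alpha difference was -173 TPM, and without replicate 14 it was -526 TPM, so its size rests on single libraries.

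As shares of beta-tubulin TPM, Tubb5 was 46.3% ± 0.977 in WT and 48.6% ± 2.61 in A10KO, and Tubb4b was 28.9% ± 2.26 and 29.0% ± 3.93 (SD, n = 3). Tubb3 was 12.3%, 13.9% and 12.4% in WT and 16.4%, 13.03% and 9.07% in A10KO, for means of 12.8% in both groups. Tubb6 was 8.73% ± 0.151 in WT and ranged from 6.69% to 9.36% in A10KO. Against these, Tubb2b was 1.38%, 1.70% and 1.503% in WT and 0.399%, 0.435% and 0.374% in A10KO. Tubb2a was 1.10%, 1.30% and 1.25% in WT and 0.701%, 0.905% and 1.09% in A10KO. The highest A10KO share of Tubb2a, in replicate 14, almost met the lowest WT share, in replicate 1, so its separation is slight while that of Tubb2b is wide.

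In the alpha pool Tuba1b was 70.1% ± 1.60 in WT against 71.9% ± 1.12 in A10KO (SD, n = 3). Tuba1a was 16.6%, 20.3% and 17.0% in WT and 14.4%, 16.6% and 16.0% in A10KO. The highest A10KO and lowest WT shares of Tuba1a nearly met, so that separation is slight. Tuba1c was 10.4% ± 0.386 in WT and reached 13.7% in A10KO replicate 1, where Tuba4a was 0.147%. Tuba4a was 1.51% ± 0.083 in WT and 3.11% and 1.63% in A10KO replicates 13 and 14.

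**Figure D3:**
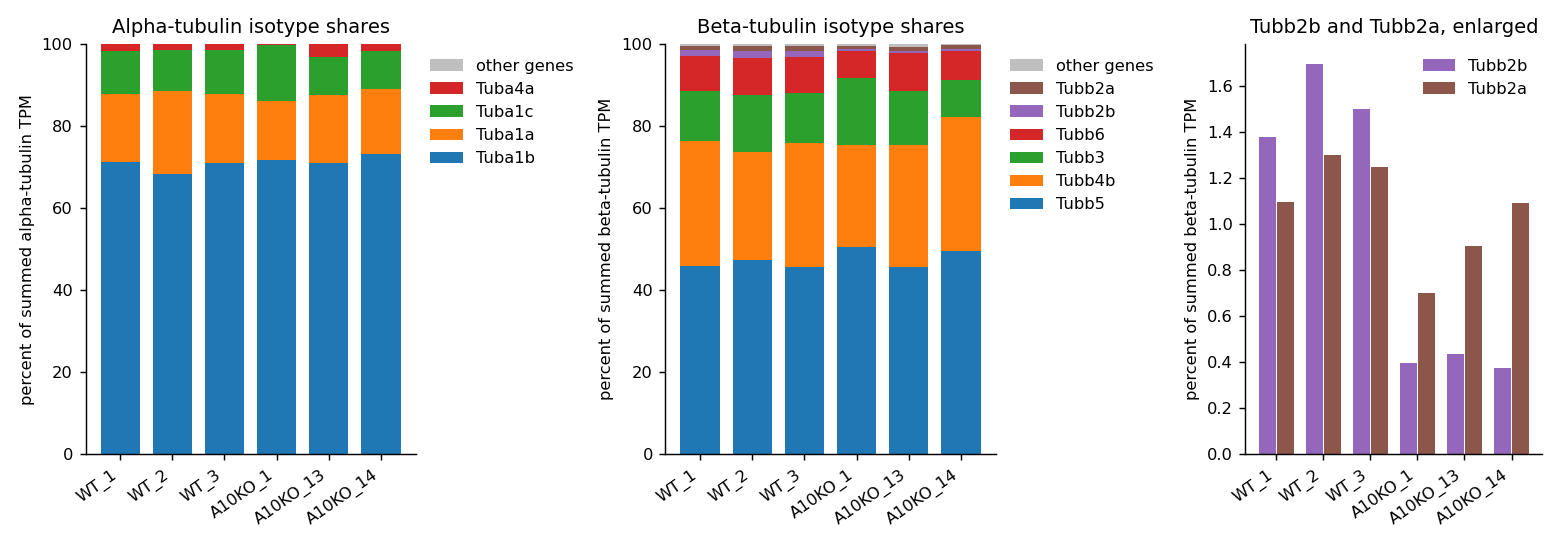
Share of summed alpha- and beta-tubulin TPM held by each isotype in each library, as stacked bars, with the Tubb2b and Tubb2a shares enlarged as separate bars from 0. Tubb2b covers 1.38% to 1.70% of the beta pool in WT and 0.374% to 0.435% in A10KO, below Tubb2a in each A10KO library.

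By level in WT the order of the beta genes was Tubb5, Tubb4b, Tubb3, Tubb6, Tubb2b and Tubb2a, and no neighbouring ranges met. A10KO kept that order except that Tubb2a came before Tubb2b, again with no ranges meeting. The alpha order was Tuba1b, Tuba1a, Tuba1c and Tuba4a in both groups, with no ranges meeting. Of the other 6 alpha- and beta-tubulin genes in the table, 5 were under 1 TPM in every library. Tubb4a, a brain isotype, was measured at 7.17, 9.30 and 7.99 TPM in WT and 8.06, 12.1 and 2.60 TPM in A10KO (limma log2 change -0.27, adjusted p = 0.873).

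Among the members, the closest pair over the 6 libraries was Tubb5 and Tuba1b, whose centred log2(TPM + 1) profiles differed by 0.11 (root mean square), and the next was Tubb4b and Tuba1b at 0.14. Tubb2a and Tubb2b differed by 0.70, and Tubb3 and Tuba4a by the most, 1.48. Among genes averaging 5 TPM or more, with the members left out, 6 profiles were nearest to that of Tubb2b. The median gene of 9366 differed from it by 1.04. The nearest were Rtp4 at 0.30, Arhgdib at 0.32, Nppb at 0.33, Isg15 at 0.33, Mogat1 at 0.37 and Xaf1 at 0.37. Rtp4, a receptor-transporting chaperone, stood at 12.56, 11.16 and 8.56 TPM in WT and 2.49, 1.56 and 2.86 TPM in A10KO. Nearest to Tubb5, where the median was 0.27, were Rps6ka1 at 0.032, Rps16 at 0.033, Brd7 at 0.037 and Scp2 at 0.037. These lists describe likeness over 6 libraries that share normalization, and no p is given. The Tubb2b profile is mostly the gap between groups on which the set was selected, so genes with a like gap come out nearest.

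The region around Tubb2b held 8 tested genes within 500 kb, Tubb2a included. Limma called 0 of them, beside 5 of all 12068 genes tested. The 7 non-tubulin genes had adjusted p-values of 0.566 or more. Of the 8, 5 were below 0 and 3 above, with a median log2 difference of -0.33. The median per A10KO library was 0.08, -0.66 and -0.07 for replicates 1, 13 and 14, so the low side came mostly from replicate 13. Psmg4, a proteasome assembly factor 32.5 kb from Tubb2b, stood at 105.33, 102.66 and 112.56 TPM in WT and at 166.45, 75.7 and 131.52 TPM in A10KO. Bphl, a hydrolase gene next to Tubb2a, had a log2 change of -0.58 (limma adjusted p = 0.566) and Serpinb6a, a protease inhibitor, -0.39 (adjusted p = 0.65). The others were 1110046J04Rik at -0.42, Nqo2 at -0.27, Ripk1 at 0.09 and Gm17084 at 0.17. Without A10KO replicate 13 Bphl was at -0.33 and Serpinb6a at -0.14, and Nqo2 was at -0.14 without WT replicate 1. None of the 8 had a difference as large as that of Tubb2b.

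**Figure D4:**
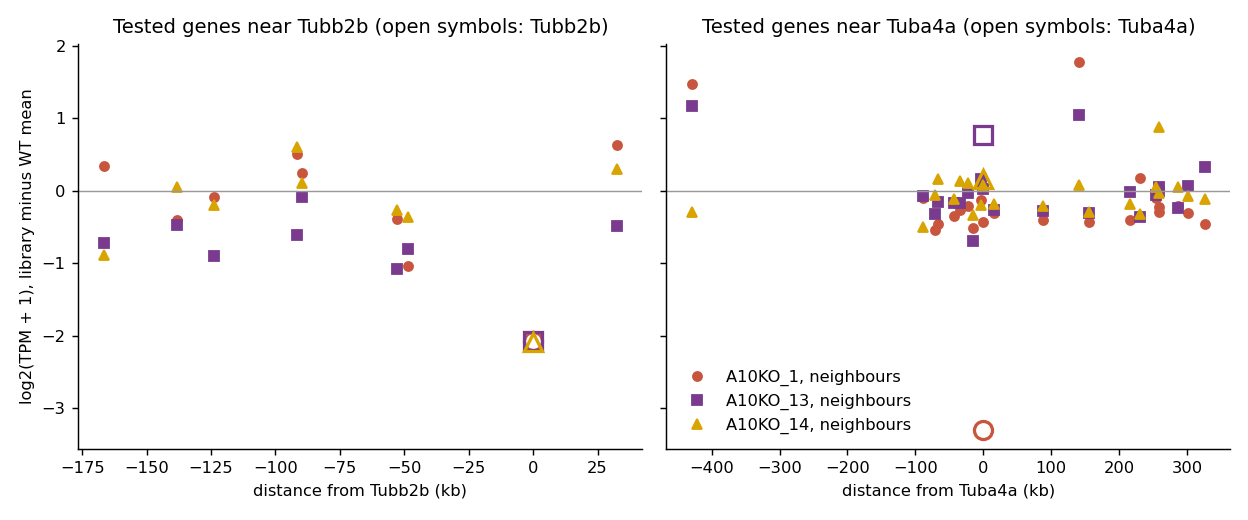
Log2 difference of each A10KO library from the WT mean for tested genes near Tubb2b (left) and Tuba4a (right), by distance in kb, with open symbols for the tubulin gene itself. Tubb2b lies at -2.09 to -2.07 in every library, below all its neighbours, and Tuba4a lies at -3.30 in A10KO replicate 1 only.

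Beyond the isotypes, 7 lists of genes that make, fold, modify or use tubulin held 168 genes, of which 145 were tested. Of these, 0 were called by limma, where 0.0249% of all tested genes were called lower and 0.0166% higher. With calls so rare in the whole table, 0 calls here or in a single list are not read as a lack of change. Limma gave 9 of the 145 an unadjusted p under 0.05, 8 lower and 1 higher. No alternative gave a call in the lists. Over all 12068 genes 8.83% were at an unadjusted p under 0.05. Of the 145, 95 were below 0, where 56.5% of all genes were. All A10KO libraries were below WT for 20 and above WT for 4, beside 11.5% and 5.61% of all genes, and nothing is read from these counts.

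For gamma-tubulin and its ring complex, which nucleates microtubules, 0 of 13 genes were called, and 9 were below 0 (median -0.13). Tubgcp2, a ring complex subunit, was measured at 37.9 ± 2.47 TPM in WT and 28.3 ± 3.69 TPM in A10KO (SD, n = 3), a log2 change of -0.42 (limma adjusted p = 0.48). Tubd1, delta-tubulin, had a log2 change of -0.52 (adjusted p = 0.497), Tubg1, gamma-tubulin, -0.26 (adjusted p = 0.671; -0.10 without A10KO replicate 1), and Cdk5rap2, a centrosomal activator of the ring complex, -0.09 (adjusted p = 0.847). For tubulin folding, by the CCT chaperonin and cofactors, 0 of 22 were called and the median was -0.08. Tbce, the folding cofactor that acts on alpha-tubulin, was 14.8 TPM in WT and 19.3 TPM in A10KO, a log2 change of 0.37 (limma adjusted p = 0.572). Arl2, a GTPase of the same cofactor pathway, had a log2 change of -0.40 (adjusted p = 0.623), and -0.18 without A10KO replicate 13. The chaperonin subunits Cct7 and Cct2, the 2 highest genes of the list, were at -0.06 (adjusted p = 0.926) and -0.0044 (adjusted p = 0.992), and both were above 0 with mitochondrial transcripts removed.

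The 3 genes tested for tubulin mRNA autoregulation had 0 calls. Ttc5, the recognition factor, was 30.6 ± 2.86 TPM in WT and 24.0 ± 2.51 TPM in A10KO (SD, n = 3), a log2 change of -0.34 (limma adjusted p = 0.564). Cnot11, a subunit of the deadenylase complex that removes the mRNA, was at -0.08 (adjusted p = 0.919) and at 0.11 without A10KO replicate 1. Among tubulin modifying enzymes, 0 of 22 tested were called. Ttll3, a glycylating enzyme, was 4.55 ± 1.02 TPM in WT and 8.18 ± 0.772 TPM in A10KO (SD, n = 3), with a log2 change of 0.74 (adjusted p = 0.389). Agbl4, a carboxypeptidase that removes glutamates from tails, was 25.4 ± 13.2 and 58.0 ± 36.3 TPM, with a log2 change of 0.99 (adjusted p = 0.694) and overlapping groups. The Agbl4 change was 1.71 without A10KO replicate 14, 0.57 without replicate 1 and 0.65 without WT replicate 1. Sirt2, a tubulin deacetylase, was at -0.10 (adjusted p = 0.815), and Svbp, the partner of the enzymes that remove the final tyrosine, was at -0.04 (adjusted p = 0.953) and above 0 under both other scalings.

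Of 34 tested microtubule-associated proteins, 0 were called (median -0.11). Mapre3, a plus-end protein, had a log2 change of -0.56 (adjusted p = 0.584), and Mapt, the microtubule stabilizer tau, 0.345 (adjusted p = 0.671). Stmn1, a tubulin-sequestering protein, had -0.16 (adjusted p = 0.772) and Tacc3, a spindle protein, -0.18 (adjusted p = 0.77). Mapre3 was at -0.36 without WT replicate 2 and -0.34 without A10KO replicate 14, and Mapt was at 0.18 without WT replicate 3. Of 50 kinesin and dynein genes 0 were called (median -0.06). Kif3c, a kinesin-2 motor, was 19.9 ± 1.92 TPM in WT and 13.7 ± 0.841 TPM in A10KO (SD, n = 3), with a log2 change of -0.50 (limma adjusted p = 0.42). Dync1h1, the dynein heavy chain, was 279 ± 8.58 and 222 ± 61.1 TPM, a log2 change of -0.37 (adjusted p = 0.662). Kif21b, a kinesin-4 motor, had -0.56 (adjusted p = 0.664), and Dynlrb1, a dynein light chain, -0.15 (adjusted p = 0.801), with 0.015 once A10KO replicate 1 was left out. Without that library Dync1h1 was at -0.12, and Kif21b was at -0.24 without WT replicate 2 and -0.345 without A10KO replicate 14.

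**Figure D5:**
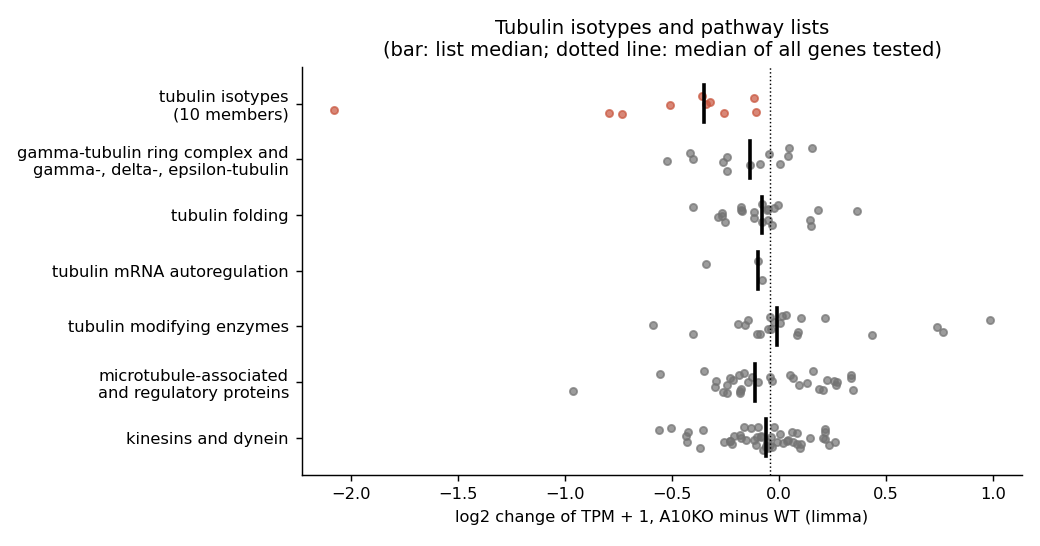
Limma log2 change of TPM + 1, A10KO minus WT, of each tested gene in the tubulin lists, with a bar at each list median and a dotted line at the median of all genes. The 10 isotypes have a median of -0.35 and reach -2.08, and the other 6 lists drawn have medians between -0.13 and -0.01.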

How the data were processed

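The values used are TPM, as deposited by the authors for 6 libraries. The depositors call the series table raw counts, but its columns carry decimals and sum to between 969834 and 985045, which fits TPM and not counts, so no count model was run. The per-library files matched the series table in 6 of 6 cases. The submitters' processing notes name fastp, HISAT and RSEM with GRCm38.p5. No version, setting or strand is given there. Coordinates came from GENCODE M21 for GRCm38, matched by gene identifier for 51633 of 51912 genes.

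limma 3.58.1 with a mean-variance trend, in R 4.3.3, was fitted to log2(TPM + 1) over the 12068 genes that reached 1 TPM in 3 or more libraries, with Benjamini-Hochberg adjustment and a threshold of 0.05. The scripts were tested on simulated data. Shares were taken over all alpha- or beta-tubulin genes. Named genes were the 10 members, Anxa10, every called gene of a list or else the 2 highest and the 2 with the largest change at a mean of at least 5 TPM, tested genes within 500 kb of Tubb2b, and the 6 and 4 profiles nearest to Tubb2b and Tubb5. The members and lists were chosen with earlier results of these data known. Sequences were read from GRCm38.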

Additional observations from a re-analysis of the deposited data

How the results depend on the processing

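The alternatives were a pseudocount of 0.1, no filter or a filter at 5 TPM, median-of-ratios scaling, removal of mitochondrial transcripts, array quality weights, other denominators for the shares, and each library left out. Across them the Tubb2b difference stayed between -2.23, with a pseudocount of 0.1, and -2.02. The number of genes called in the whole table was 5, became 25 with array quality weights, and was 2 to 8 when single libraries were left out. Signs turned as follows, and the cause was not tested. Cct2 became 0.047 under median-of-ratios scaling and 0.062 with mitochondrial transcripts removed, Svbp became 0.015 and 0.029 in these settings and 0.065 with weights, and Cct7 became 0.011 with mitochondrial transcripts removed. With single libraries left out, Tuba4a ranged from -1.57 to 0.46, Tuba1c from -0.27 to 0.035, Tubb4a from -0.67 to 0.26, Cct7 from -0.13 to 0.058 and Cct2 from -0.067 to 0.054. Likewise Cnot11 ranged from -0.18 to 0.11, Svbp from -0.15 to 0.034, Dynlrb1 from -0.25 to 0.015, Gm17084 from -0.051 to 0.56 and Psmg4 from -0.096 to 0.47. No paired analysis was possible because the labels name no pairing between the groups. Depth is unknown, so what it limits could not be measured.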

Other observations

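Tuba4a was one of 6 genes, of 8554 considered, that stood at least 8-fold below the lowest of the other 5 libraries in A10KO replicate 1. The others were Cbr3, Hs3st1, Itpr2, Mast4 and Pnpla3. The same count was 21 in A10KO replicate 13, 3 in replicate 14 and 2 in each WT library. Of 22 tested genes within 500 kb of Tuba4a, 0 were called by limma, beside 5 of all 12068 genes tested. Their median log2 difference from the WT mean in A10KO replicate 1 was -0.30. Both descriptions were chosen after the Tuba4a values were seen.

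Agbl1, a tubulin tail carboxypeptidase chosen after its values were seen, stood at 17.4, 5.64 and 11.55 TPM in WT. In A10KO replicates 1, 13 and 14 it stood at 32.93, 0 and 18.65 TPM.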
